A study of Mus musculus with 8 samples.

Results

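The comparison described here is Brf1 knockdown against control in mouse 3T3-L1 preadipocytes at day 0, 2 days after the cells had reached confluence and before any differentiation cocktail was added. The pair was taken from the study's labels: the library of cells carrying an shRNA against Brf1 (shBrf1) and the library of cells carrying an empty shRNA vector (control), which are 2 of the 8 libraries of the series. All 31252 genes of the count table were used. The other libraries at day 0 came from cells with an shRNA against Maf1 (shMaf1) and from cells given ML-60218, a compound that inhibits polymerase III. The same 4 conditions were also collected at day 2, after 2 days in insulin, dexamethasone, IBMX and ascorbic acid. 3T3-L1 is an embryonic fibroblast line that stops dividing at confluence and can be induced to become adipocytes. Each condition and day was sequenced as 1 library, so no difference below has a replicate check, and no p-value is given. Whatever else differs between the shBrf1 cells and the control cells cannot be told apart from the knockdown, and the sequence and number of shRNAs and whether lines were clonal are not given in the sources used here.

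Brf1 encodes a subunit of TFIIIB, the initiation factor that recruits RNA polymerase III to tRNA genes and the 5S rRNA genes. TFIIIC binds the internal promoter of a tRNA gene and places TFIIIB upstream of the start site, and MAF1 represses the polymerase by acting on it and on BRF1. Preadipocytes become adipocytes through a cascade in which CEBPB and CEBPD act first and PPARG and CEBPA follow, while Wnt signalling holds the cells in the undifferentiated state.

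The 2 libraries held 31759559 counts in shBrf1 and 31641883 in control, so that 1 CPM, a count scaled to the size of its library, stood for 33.2 and 34.7 counts. They were alike in the deposited quality sheets: ribosomal RNA took 0.56% of reads in each, the 3′ bias score was 0.07 in each, and the duplicate share was 23.5% in shBrf1 and 22.48% in control. The 10 fibroblast markers were all measured, at 42620 CPM in shBrf1 and 37130 CPM in control in sum. The epithelial markers, among them Epcam and Cdh1 at 0 counts in both libraries, were below 1 CPM, and the muscle regulators Myod1, Myog and Myf5 were at 0 counts in both.

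A gene counted as measured when it reached 1 CPM in either library, which 12266 genes did. A gene was called higher or lower when its CPM, after TMM scaling, differed at least 2-fold on the log2(CPM + 0.5) scale, a scale that understates the change of low genes. By this size rule 60 genes (0.489% of those measured) were higher in shBrf1 and 61 (0.497%) were lower, 121 genes or 0.986% in all. When the libraries were scaled by the reads of ERCC spike-in RNAs, 42 were higher and 103 lower, so the even split rests on the scaling. The log2 ratio of shBrf1 over control had a median of 0.02 over all measured genes, and its 5th and 95th percentiles were -0.43 and 0.43. Within 1.2-fold of control lay 76.8% of the measured genes. The values in brackets after a fold are its exact 95% interval (Clopper-Pearson, on the counts of the 2 libraries), which covers counting error only. RNA from a whole culture cannot tell fewer cells that express a gene from less RNA per cell.

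**Figure D1:**
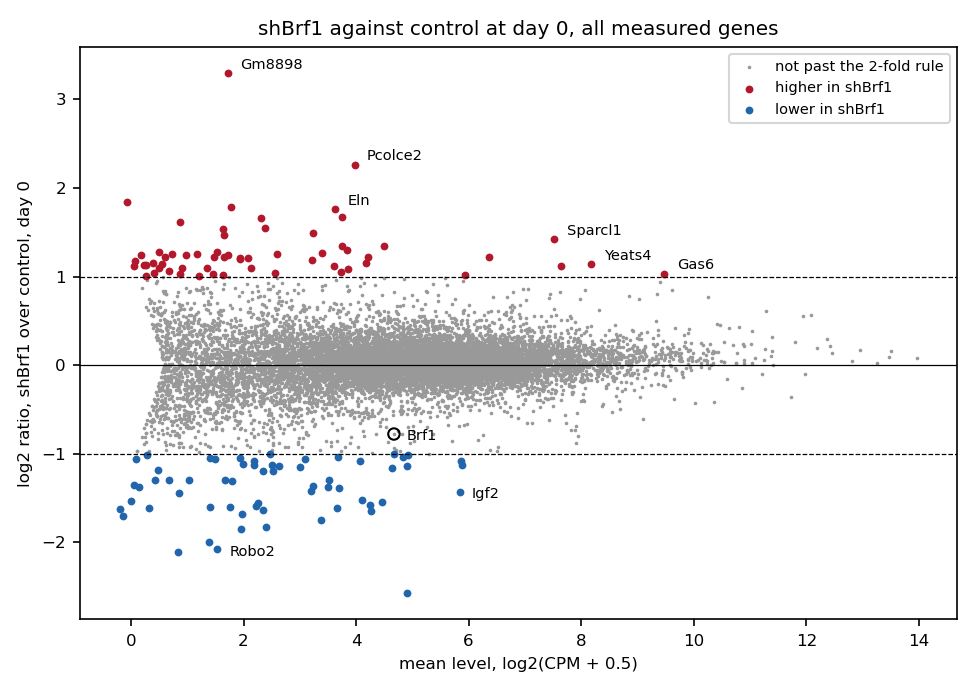
Each point is 1 of the 12266 measured genes, with its mean level over the shBrf1 and control libraries of day 0 in log2(CPM + 0.5) on the x axis and the log2 ratio of shBrf1 over control on the y axis. Dashed lines mark the 2-fold rule, red and blue points are the 60 genes higher and the 61 genes lower in shBrf1, and the ring marks Brf1, which lies inside the lines.

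The target of the shRNA was examined first. Brf1 (mm10 chromosome 12, 112959862 to 113000621) had 631 counts in shBrf1 and 1139 in control, or 18.98 CPM in shBrf1 against 32.9 CPM in control, a log2 ratio of -0.78 and a fold of 1.73 (1.57 to 1.91), short of the size rule. The shMaf1 and ML-60218 libraries of the same day had 29.9 and 33.2 CPM, near the control. The shBrf1 library was therefore the only low one of the 4. Brf1 lies on a chromosome whose other genes went the opposite way: the median log2 ratio of the 411 measured genes of chromosome 12 was 0.24. Against that median Brf1 stood 2.02-fold lower, and it ranked 3rd from the lowest of the 411, after Rsad2 and Nova1. Among all 12266 measured genes it was 150th from the lowest.

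No gene of the polymerase III machinery passed the size rule in either direction. The 11 TFIIIB and TFIIIC factors had a median log2 ratio of -0.07. Brf2, which replaces BRF1 at polymerase III genes with upstream promoters such as those of U6 and 7SK, had 8.27 CPM in shBrf1 against 10.3 CPM in control, 1.24-fold apart (1.06 to 1.46). Bdp1, a TFIIIB subunit used with either of them, had 28.0 CPM in shBrf1 against 33.0 CPM in control. The 18 polymerase III subunits had a median of 0.11, which turned to -0.02 by spike-in reads, and their log2 ratios spanned -0.22 to 0.26. The 12 regulators had a median of 0.07, or -0.06 by spike-in reads. Among them Snapc2, a subunit of the complex that binds upstream elements of snRNA genes, stood at 29.4 CPM in shBrf1 against 23.0 CPM in control, 1.28-fold apart (1.16 to 1.41). Maf1 had 61.0 CPM in shBrf1 against 55.8 CPM in control, with a fold of 1.09 (1.03 to 1.16). The products of polymerase III could not be read: the libraries were made from polyadenylated RNA, 5 of the 11 listed transcripts were in the table, and none reached 1 CPM.

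Genes that translate mRNA stayed close to control. The 38 cytosolic ribosomal protein genes had a median log2 ratio of 0.13, with 37 above 0, and a median at -0.00 by spike-in reads. The 20 aminoacyl-tRNA synthetases had a median of -0.03, the 24 polymerase I and ribosome biogenesis genes -0.08, and the 18 translation factors 0.04, which turned to -0.03 by library totals and to -0.09 by spike-in reads. None of these 100 genes passed the size rule.

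The genes highest in shBrf1 included secreted proteins of the extracellular matrix. Pcolce2, an enhancer of procollagen processing, had 33.9 CPM in shBrf1 against 6.67 CPM in control, 5.09-fold higher (4.41 to 5.89). Eln, which encodes the elastin core of elastic fibres, had 22.2 CPM in shBrf1 against 6.20 CPM in control, 3.58-fold higher (3.07 to 4.19). In shMaf1 and ML-60218 these 2 genes had 4.11 and 6.94 CPM for Pcolce2 and 7.19 and 4.16 CPM for Eln, so that shBrf1 alone stood high among the 4 libraries. Sparcl1, a matricellular relative of SPARC, was 2.68-fold higher (2.59 to 2.79), at 299 CPM in shBrf1 against 112 CPM in control. Gas6, a secreted ligand of the TAM receptor kinases, was 2.05-fold higher (2.01 to 2.09), at 1018 CPM in shBrf1 against 497 CPM in control, and Gpc1, a cell surface heparan sulfate proteoglycan, was 2.17-fold higher (2.10 to 2.25), at 292 CPM in shBrf1 against 135 CPM in control. These last 2 were named after their values were seen. They were not among the 15 highest or the 150 genes followed over the other scalings and pseudocounts. Spike-in reads moved the median ratio over all genes by -0.13, and the same shift puts both Gas6 and Gpc1 short of the rule. Library totals moved it by -0.06, which puts Gas6 short.

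Matrix genes were also counted as lists. Of 20 measured elastic fibre genes 2 were higher (0.489% of all measured genes) and 0 lower (0.497%), with a median log2 ratio of 0.14. Eln and Fbln5, which helps to lay elastin onto microfibrils, were the 2, and Fbln5 had 86.5 CPM in shBrf1 against 42.4 CPM in control, 2.04-fold higher (1.91 to 2.17). Its log2 ratio was 0.95 by library totals and 0.89 by spike-in reads, short of the rule in both. Ltbp2, a microfibril-associated protein, did not reach the rule at 360 CPM in shBrf1 against 200 CPM in control (1.80-fold, 1.75 to 1.85). Of the 20 elastic fibre genes, 12 were above 0 and 8 below, the lowest being Efemp1 at -0.64. Of 21 collagen processing genes and small proteoglycans 2 were higher and 1 lower, with a median of 0.33 and 17 above 0. At least 1.5-fold above control were 6 of the 21, against 2.45% of all measured genes. Fmod, a small leucine-rich proteoglycan that binds collagen fibrils, was 2.13-fold higher (1.86 to 2.46), at 18.6 CPM in shBrf1 against 8.71 CPM in control, with a log2 ratio of 0.99 by library totals and 0.93 by spike-in reads, short of the rule. Adamts14, a procollagen amino-propeptidase, was 2.07-fold lower (1.89 to 2.28), at 19.4 CPM in shBrf1 against 40.2 CPM in control. Aspn, of the same proteoglycan family as Fmod, had 858 CPM in shBrf1 against 491 CPM in control, 1.75-fold apart (1.72 to 1.78). Of 19 collagen chains only Col15a1, a chain of a basement membrane collagen, passed the rule, at 6.80 CPM in shBrf1 against 17.4 CPM in control, 2.56-fold lower (2.20 to 3.00), and the median of the list was 0.15. The medians of the elastic fibre genes and of the collagen chains were 0.01 and 0.02 by spike-in reads.

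The other genes among the 15 highest had varied roles. Lyz2, the macrophage lysozyme, was 3.34-fold higher (2.89 to 3.87), at 23.4 CPM in shBrf1 against 7.01 CPM in control. The 11 macrophage markers in the table, of which 4 were measured, summed to 35.4 CPM in shBrf1 against 14.95 CPM in control, and the defining markers Ptprc, Fcgr1 and Tyrobp were at 0 counts in both libraries. The measured markers were Lyz2, Cd14, Cd68 and Aif1, with a median log2 ratio of 0.60 and 3 above 0, and Cd14, a receptor for bacterial lipopolysaccharide, had 8.79 CPM in shBrf1 against 5.08 CPM in control (1.73-fold, 1.43 to 2.10). Their part in the other values was not tested. Tusc5, which takes part in the sorting of the insulin-regulated glucose transporter, was 3.00-fold higher (2.52 to 3.58), at 15.2 CPM in shBrf1 against 5.08 CPM in control. Clu, the extracellular chaperone clusterin, was 2.63-fold higher (2.28 to 3.04), and Gper1, a membrane-bound oestrogen receptor, was 2.54-fold higher (2.22 to 2.91), at 22.1 CPM in shBrf1 against 8.69 CPM in control. Serpina3n, a secreted protease inhibitor with close paralogs, was 3.29-fold higher (2.59 to 4.23), and the carboxylesterase gene Ces1d, also 1 of a family, was 4.35-fold higher (3.15 to 6.11). The remaining members were Fam211b, Dpep1, Xlr, Ptprv, Megf10 and Nsg1, with folds from 2.34 to 2.60.

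The genes lowest in shBrf1 had varied roles. Robo2, a receptor for Slit guidance ligands, was 6.01-fold lower (4.07 to 9.16) at 0.903 CPM in shBrf1 against 5.43 CPM in control. Cemip, which takes part in the breakdown of hyaluronan, was 3.57-fold lower (3.01 to 4.25), at 5.18 CPM in shBrf1 against 18.5 CPM in control. Prokr1, a receptor for prokineticins, was 3.22-fold lower (2.77 to 3.76), at 6.68 CPM in shBrf1 against 21.5 CPM in control. Ampd3, an AMP deaminase, was 3.09-fold lower (2.74 to 3.49), at 10.5 CPM in shBrf1 against 32.3 CPM in control. Also among the 15 lowest were Fhod3, a formin, Cyfip2, a subunit of the WAVE actin regulator, Hap1, a partner of huntingtin, and Msln, mesothelin. Their folds ran from 3.37 to 4.10.

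**Figure D2:**
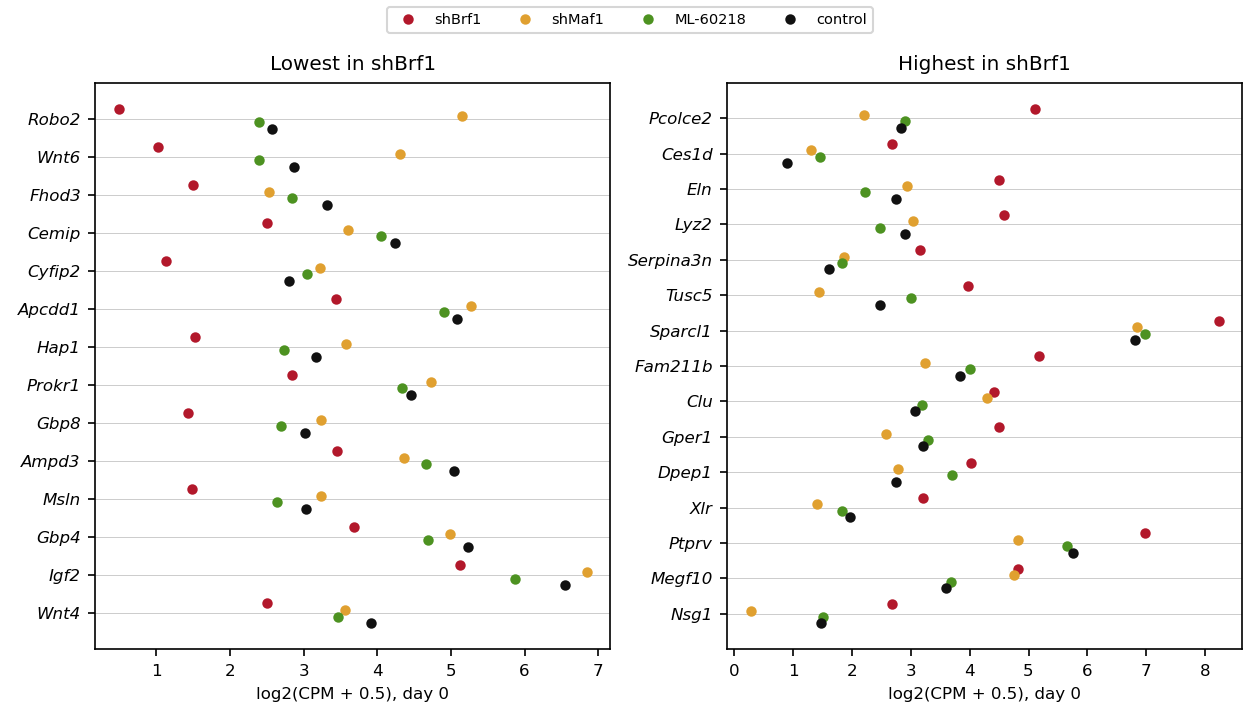
Levels in log2(CPM + 0.5) of 14 of the 15 lowest (left) and the 15 highest (right) named genes in the 4 day 0 libraries, 1 point per library. The shBrf1 point lies at the edge of each row, which the choice of genes by their shBrf1 to control ratio favours. The shMaf1 points fall on either side of the control.

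For the 121 genes past the rule, the levels in all 4 day 0 libraries were set side by side. In shBrf1, 55 of the 60 higher genes had their highest level and 60 of the 61 lower genes their lowest. The genes were chosen by the gap between shBrf1 and control, which by itself favours an extreme place for shBrf1 or control. No expected count was worked out. The control was the lowest library for 22 of the 60 and the highest for 24 of the 61. At least 2-fold beyond every one of the other 3 libraries lay shBrf1 for 26 higher genes (0.212% of all measured) and 21 lower genes (0.171%), and control for 1 gene. That gene was the predicted gene Gm8898, the highest by ratio, at 9.81 CPM in shBrf1, 6.26 CPM in shMaf1, 10.9 CPM in ML-60218 and 0.548 CPM in control. Its value therefore rests on the control library. Brms1 had 43 counts in shBrf1 and 0 in control, at least 14.9-fold higher when the control is put at a floor of 3 counts. It had 2.62 CPM in shMaf1 and 0.329 CPM in ML-60218, beside 1.29 CPM in shBrf1.

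Genes of adipogenesis addressed whether cells with less Brf1 mRNA already differed before induction. Of the 17 measured adipogenic transcription factors 15 had a log2 ratio above 0, against 54.7% of all genes placed on a chromosome. The median was 0.28, or 0.15 by spike-in reads, and 0 passed the size rule. Cebpd came closest, at 16.9 CPM in shBrf1 against 8.48 CPM in control (2.00-fold, 1.73 to 2.31). Pparg had 38.1 CPM in shBrf1 against 28.0 CPM in control, Cebpb 25.3 against 19.2 CPM and Cebpa 11.3 against 8.77 CPM. All 4 genes were thus above control by more than their counting error, and in shMaf1 of the same day, with the same control, Pparg had a log2 ratio of -0.43, Cebpb -0.22, Cebpd 0.26 and Cebpa 0.15. Klf4, an early factor upstream of Cebpb, had 64.6 CPM in shBrf1 against 46.8 CPM in control. In sum, the listed adipogenic factors had 875.8 CPM in shBrf1, 784.3 CPM in ML-60218, 634.1 CPM in shMaf1 and 732.8 CPM in control. ML-60218 was thus also above control.

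Of the 19 measured adipocyte genes 16 had a log2 ratio above 0, against 54.7% of all genes placed on a chromosome, and the median was 0.25. By the size rule 1 of the 19 was higher and 0 lower. The higher one was Cd36, a fatty acid transporter, at 3.76 CPM in shBrf1 against 1.33 CPM in control, 2.83-fold (2.01 to 4.06). It had 0.249 CPM in shMaf1 and 3.41 CPM in ML-60218. In sum, the listed adipocyte genes had 1810 CPM in shBrf1, 1915 CPM in ML-60218, 1148 CPM in shMaf1 and 1444 CPM in control. Lpl, the lipase that frees fatty acids from lipoproteins, had 606 CPM in shBrf1 against 352 CPM in control (1.72-fold, 1.68 to 1.76), and Plin4, a lipid droplet coat protein, 179 against 98.3 CPM (1.82-fold, 1.74 to 1.90). Fabp4, the adipocyte fatty acid carrier, had 3.94 CPM in shBrf1 against 3.23 CPM in control, and its interval (0.940 to 1.58) held 1, so no difference was detectable at this depth.

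Preadipocyte genes did not move as a group. Of 19 measured 1 was higher and 1 lower, with a median of 0.05 that turned to -0.02 by library totals and -0.08 by spike-in reads. Dlk1, the surface protein Pref-1 that holds preadipocytes back, had 1363 CPM in shBrf1 against 1221 CPM in control, 1.12-fold apart (1.10 to 1.13). The lower gene was Wnt6, a ligand that restrains adipogenesis, at 1.53 CPM in shBrf1 against 6.81 CPM in control, 4.44-fold (3.27 to 6.13). The higher gene was Id2, given below with the BMP genes. Gata2, a transcription factor that opposes Pparg, had 15.2 CPM in shBrf1 against 26.4 CPM in control (1.74-fold, 1.56 to 1.94).

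Of 16 measured Wnt genes 0 were higher (0.489% of all measured genes) and 2 lower (0.497%), with a median of 0.21, 10 above 0 and 6 below. Both lower genes were ligands. Wnt4 had 5.14 CPM in shBrf1 against 14.6 CPM in control, 2.83-fold lower (2.38 to 3.39), beside Wnt6 above. Fzd4, a receptor, had 23.4 CPM in shBrf1 against 11.6 CPM in control (2.02-fold, 1.79 to 2.28), just short of the rule on the scale with the pseudocount. Lef1, a transcription factor of the pathway, had 6.83 CPM in shBrf1 against 3.52 CPM in control (1.94-fold, 1.55 to 2.44). Apcdd1, a membrane antagonist of Wnt receptors that was among the 15 lowest, was 3.23-fold lower (2.86 to 3.65), at 10.3 CPM in shBrf1 against 33.4 CPM in control.

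Among 21 TGF-beta and BMP genes 1 was higher and 0 lower, with a median of 0.19. Id2, an inhibitor of basic helix-loop-helix factors and a BMP target, was 2.25-fold higher (1.94 to 2.61), at 17.5 CPM in shBrf1 against 7.79 CPM in control. By spike-in reads its log2 ratio was 0.99, short of the rule. Its 3 relatives, taken up after their values were seen, also stood above control. Id1 had 39.8 CPM in shBrf1 against 20.03 CPM in control (1.99-fold, 1.81 to 2.18), Id4 7.31 against 3.69 CPM (1.98-fold, 1.59 to 2.47) and Id3 47.7 against 33.3 CPM (1.43-fold, 1.33 to 1.55). Tgfbi, a secreted target of the pathway, had 166 CPM in shBrf1 against 99.7 CPM in control (1.67-fold, 1.60 to 1.74), while the receptor gene Tgfbr2 had 139 CPM in shBrf1 against 213 CPM in control (1.54-fold, 1.48 to 1.60).

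Insulin-like growth factor 2 and its neighbour H19 were both lower. Igf2 (chromosome 7, 142650768 to 142661035), a fetal growth factor that is imprinted in mice, had 34.4 CPM in shBrf1 against 93.3 CPM in control, 2.71-fold lower (2.53 to 2.90). H19, an imprinted noncoding RNA next to it, appeared in the table as 2 overlapping rows, which were looked up after the values were seen. The row AK145379 (142575531 to 142578114), described there as an H19 cDNA, had 9.63 CPM in shBrf1 against 28.5 CPM in control, 2.96-fold lower (2.61 to 3.37). The row named H19 had 12 counts in shBrf1 against 38 in control, a fold of 3.04 (1.55 to 6.38), and how reads were split between the 2 rows is not known. In the other libraries of day 0 Igf2 had 114 CPM in shMaf1 and 57.9 CPM in ML-60218, and AK145379 had 64.2 and 19.5 CPM. Of 17 insulin and IGF genes Igf2 alone passed the rule. Igfbp3, a carrier of IGFs, had 31.3 CPM in shBrf1 against 15.6 CPM in control (2.00-fold, 1.80 to 2.23), and Igfbp4, another carrier, 186 against 323 CPM (1.74-fold, 1.69 to 1.80), so the 2 carriers differed in direction.

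Genes of cholesterol synthesis stood slightly above control together. Of 23 measured 0 passed the size rule, and 22 had a log2 ratio above 0, against 54.7% of all genes placed on a chromosome. The median was 0.24, or 0.11 by spike-in reads. Their ratios ran from -0.06 to 0.61. Hsd17b7 had 31.6 CPM in shBrf1 against 20.6 CPM in control (1.54-fold, 1.40 to 1.69), Insig1, the sterol-regulated anchor of SREBP processing, 86.7 against 60.6 CPM (1.43-fold, 1.35 to 1.52) and Nsdhl 49.1 against 34.2 CPM (1.43-fold, 1.33 to 1.55). The same 3 genes had 32.1, 89.7 and 54.6 CPM in ML-60218, beside the shBrf1 values, and 15.2, 65.5 and 33.2 CPM in shMaf1. In sum, the listed cholesterol genes were highest in ML-60218, at 1709 CPM. They had 1497 CPM in shBrf1, 1198 CPM in shMaf1 and 1234 CPM in control.

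Interferon response genes were lower in shBrf1 than in control as a group. Of 28 measured 0 were higher and 1 lower, 27 had a log2 ratio below 0, and the median was -0.31, against 0.02 for all measured genes. At least 1.5-fold lower were 4 of the 28 (2.55% of all measured genes) and at least 1.5-fold higher were 0 (2.45%). Mx1, an antiviral GTPase, had 39.4 CPM in shBrf1 against 86.3 CPM in control, 2.19-fold lower (2.05 to 2.34). Rsad2, the antiviral enzyme viperin, had 11.3 CPM in shBrf1 against 22.0 CPM in control (1.94-fold, 1.71 to 2.20). Zbp1, a sensor of Z-form nucleic acids, had 20.2 CPM in shBrf1 against 34.2 CPM in control (1.69-fold, 1.54 to 1.86), and Ifit3 309 against 446 CPM (1.44-fold, 1.41 to 1.48). The control was also above the other 2 libraries: Mx1 had 67.2 CPM in shMaf1 and 60.5 CPM in ML-60218, and Ifit3 230 and 310 CPM. In sum, the listed interferon genes had 3342 CPM in shBrf1, 3337 CPM in ML-60218, 2701 CPM in shMaf1 and 4011 CPM in control. For the list, shBrf1 was thus near ML-60218 and above shMaf1.

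The guanylate-binding proteins, interferon-induced GTPases grouped after their values were seen, were uneven. Of 10 measured 3 were lower (0.497% of all measured genes) and 0 higher (0.489%). Gbp4 had 12.4 CPM in shBrf1 against 37.1 CPM in control, 3.00-fold lower (2.68 to 3.36), Gbp8 2.20 against 7.59 CPM, 3.46-fold lower (2.66 to 4.54), and Gbp9 39.6 against 84.5 CPM, 2.13-fold lower (2.00 to 2.28). Gbp3 and Gbp6 differed little, at log2 ratios of -0.04 and 0.02. These genes are close paralogs, and reads shared among them could be split in ways the table does not show. The class I gene H2-K1 had 175 CPM in shBrf1 against 324 CPM in control (1.85-fold, 1.79 to 1.91). The 21 measured H2 genes, also grouped after their values were seen, had a median log2 ratio of -0.30. Of these 1 was past the rule, H2-Q6, at 0 counts in shBrf1 against 39 in control. How reads were shared among the H2 genes is not known either.

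To show what the promoters of these genes hold, the interferon-stimulated response element, written as 2 copies of GAAA with any 2 bases between them, was searched on both strands of the RefSeq promoters of GRCm38.p6, which run from 250 bases before the start site to 50 after it. Promoters were given for 19 of the 28 measured interferon genes, and 11 of the 19 held the motif, matches that overlap being counted, against 3.44% of all 32851 promoters. Among genes past the size rule with a promoter, the motif was in 4 of 38 lower genes (Cxcl10, Gfra1, Igf2 and Kcnc2). It was in 1 of 36 higher genes (Fbln5). Of all measured genes with a promoter, 3.69% held it. None of these lower genes is on the list of interferon genes. It was also in all 4 promoters given for guanylate-binding proteins, Gbp2, Gbp2b, Gbp3 and Gbp7, of which none passed the size rule. Over all measured genes with a promoter, the median log2 ratio was -0.00 for the 329 with the motif and 0.03 for the others. A match describes letters and does not show that a factor binds. The stretches below are those of the 4 listed interferon genes with the lowest ratios among the holders, with Cxcl10, the lower gene that encodes an interferon-inducible chemokine. Each is printed 5′ to 3′ on the strand of its gene, with the match in capitals, in either orientation.
Rsad2 (chr12:26456543-26456592, minus strand): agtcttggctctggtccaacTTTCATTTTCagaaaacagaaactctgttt
Oas3 (chr5:120777705-120777754, minus strand): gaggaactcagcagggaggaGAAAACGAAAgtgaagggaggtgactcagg
Ifit3 (chr19:34583353-34583436, plus strand): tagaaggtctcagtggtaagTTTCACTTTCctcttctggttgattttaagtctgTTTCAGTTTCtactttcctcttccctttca
Ifit1 (chr19:34640765-34640833, plus strand): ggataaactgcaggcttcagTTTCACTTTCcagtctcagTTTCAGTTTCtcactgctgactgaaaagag
Cxcl10 (chr5:92349073-92349122, minus strand): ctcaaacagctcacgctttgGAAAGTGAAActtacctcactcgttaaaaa

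Ifit3 and Ifit1 each held 2 matches in these stretches and the other 3 genes 1 each. The letters TCACNCCAC, a sterol regulatory element, were found by the same search in 1 of the 16 promoters given for cholesterol genes, that of Hmgcs1, against 1.24% of all promoters.

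Inflammatory, contractile and immediate early genes were also lower in median. Of 19 NF-kB and inflammatory genes 1 was lower, with a median of -0.16. It was Cxcl10, at 7.55 CPM in shBrf1 against 20.6 CPM in control, 2.72-fold (2.35 to 3.15), with 13.9 CPM in shMaf1 and 10.0 CPM in ML-60218. Of the 19, 14 were below 0 and 5 above, the highest being Cxcl12 at 0.46. In sum, however, the listed inflammatory genes were higher in shBrf1, at 3086 CPM against 2555 CPM in control. Of 15 smooth muscle genes and SRF targets 0 passed the rule, and the median was -0.24. Acta2, smooth muscle actin, had 189 CPM in shBrf1 against 305 CPM in control (1.61-fold, 1.56 to 1.67), and Myl9, a myosin light chain, 22.4 against 41.8 CPM (1.86-fold, 1.70 to 2.04). Both had more in shMaf1, at 553 and 87.6 CPM. Of 18 immediate early genes 0 passed the rule, 16 were below 0, and the median was -0.31. Egr1, a zinc-finger factor induced by serum, had 104 CPM in shBrf1 against 164 CPM in control (1.58-fold, 1.51 to 1.64).

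**Figure D3:**
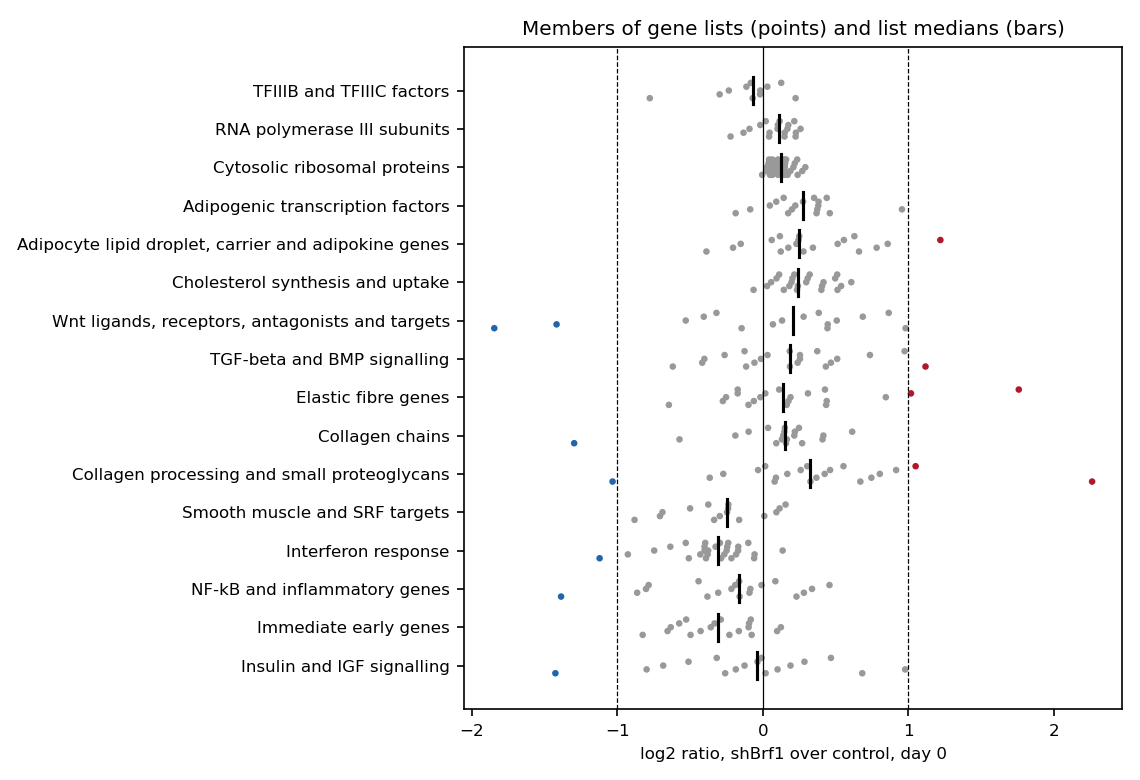
Log2 ratios of shBrf1 over control at day 0 for the measured members of 16 gene lists (points) with the list median (black bar). Red and blue points are past the 2-fold rule (dashed lines). Most members lie inside the lines, and the interferon response genes lie almost wholly to the left of 0.

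Several other lists were near the median of all genes or had few members past the rule. Cell cycle genes had a median of 0.15 with 0 of 35 past the rule, p53 targets 0.18 with 0 of 19, ATF4 stress genes -0.05 with 0 of 20, NRF2 targets 0.14 with 0 of 15, and glycolysis genes 0.23 with 0 of 21. By spike-in reads these medians were 0.02, 0.05, -0.18, 0.01 and 0.10 in the same order. The 12 measured matrix metalloproteinases and TIMPs had 0.08, or -0.05 by spike-in reads, and Timp3, a matrix-bound inhibitor, had 17.1 CPM in shBrf1 against 31.6 CPM in control (1.85-fold, 1.67 to 2.05). Histone genes had 0.26, or 0.13 by spike-in reads, with 0 of 12 past the rule. All 12 were above 0, however, and 3 were at least 1.5-fold higher, against 2.45% of all measured genes. The libraries were made from polyadenylated RNA, so these values cover only the histone RNA captured that way. The linker histone Hist1h1c had 57.1 CPM in shBrf1 against 32.7 CPM in control. Potassium channel genes, grouped after their values were seen, had 0 higher and 3 lower of 12 measured, against 0.489% and 0.497% of all measured genes. The 3 were Kcnc2, Kcnt2 and Kcnip3, each at no more than 8.20 CPM in control. Of markers of other cells, Vwf of endothelium had 1.41 CPM in shBrf1 against 0.490 CPM in control, with Cldn5 and Erg at 0 counts in both. Of 5 bone and cartilage markers 1 was higher, Dmp1, at 60 counts in shBrf1 against 17 in control, though shBrf1 was not its highest library of day 0. Of the 5, 4 were above 0 and 1 below, Spp1 at -0.27. The listed markers summed to 256.5 CPM in shBrf1 against 276.3 CPM in control.

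The shBrf1 and control libraries of day 2 share no library with the day 0 pair and show whether the same conditions differed in the same way after induction. They are less alike in quality, since shBrf1 at day 2 had 7.8% ribosomal RNA and a 3′ bias score of 0.36, against 0.89% and 0.15 in control at day 2. The part of this in the values was not tested. At day 2, 377 genes (3.11% of 12130 measured) were higher and 667 (5.5%) lower in shBrf1. Of the genes past the rule at day 0, 45 of the 61 lower and 39 of the 60 higher reached 1 CPM at day 2, and the counts, shares and medians below include the others. Of the 61 genes lower at day 0, 35 (57.4%) were lower again at day 2 and 2 were higher, and 56 had the same sign. Of the 60 genes higher at day 0, 9 (15%) were higher again and 0 lower, and 47 had the same sign. These 9 are 2.39% of the genes higher at day 2, and the 35 are 5.25% of those lower. The median log2 ratio at day 2 was -1.28 for the lower genes and 0.26 for the higher ones, against -1.30 and 1.21 at day 0. Across the 11724 genes measured on both days, Pearson's r of the log2 ratios was 0.360, given as a description over genes, which are not independent.

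Among the genes low on both days, Prokr1 had 0.578 CPM in shBrf1 against 11.7 CPM in control at day 2, 20.2-fold lower (12.1 to 36.5), and Igf2 20.1 against 85.8 CPM, 4.27-fold lower (3.89 to 4.70). Wnt6 had 0.848 CPM in shBrf1 against 6.47 CPM in control at day 2, 7.64-fold lower (4.90 to 12.5). Brf1 itself had 13.5 CPM in shBrf1 against 27.7 CPM in control at day 2, 2.06-fold (1.82 to 2.35). Among the genes high on both days were Cd36, at 48.4 CPM in shBrf1 against 7.28 CPM in control at day 2, 6.65-fold (5.75 to 7.71), and Agt, which encodes angiotensinogen, at 316 against 139 CPM, after 13.6 CPM in shBrf1 against 5.69 CPM in control at day 0. The elastic fibre genes past the rule at day 0 were not past it at day 2: Eln had 7.86 CPM in shBrf1 against 7.49 CPM in control at day 2, and Fbln5 225 against 196 CPM. Pcolce2 had 37.8 CPM in shBrf1 against 20.8 CPM in control at day 2, a log2 ratio of 0.84. The 28 interferon genes had a median of -1.15 at day 2 with 16 lower, the 19 adipocyte genes 1.46 with 12 higher, and the 20 elastic fibre genes -0.45 with 6 lower.

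**Figure D4:**
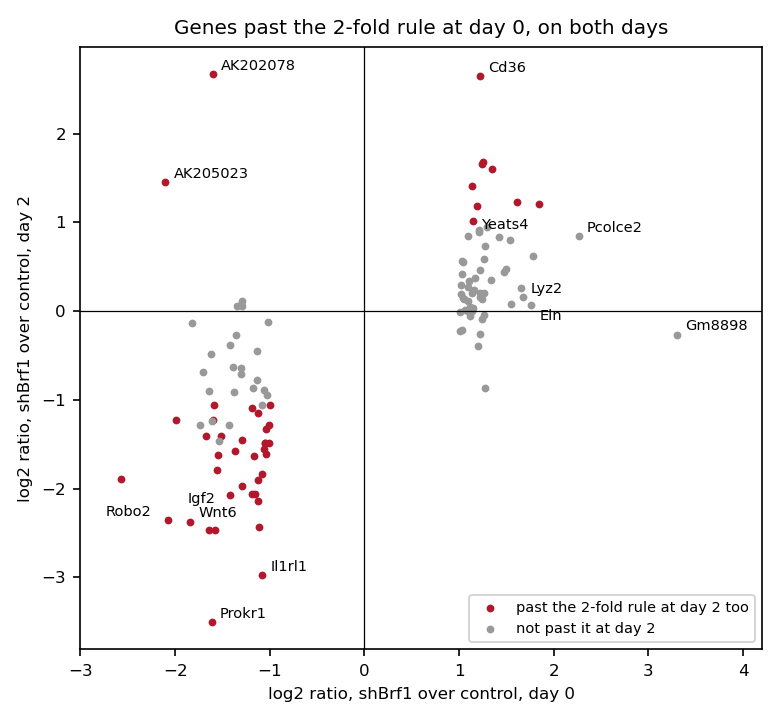
The 121 genes past the 2-fold rule at day 0, with the log2 ratio of shBrf1 over control at day 0 on the x axis and at day 2 on the y axis. Red points are past the rule on both days: 35 of the 61 lower genes and 9 of the 60 higher genes in the same direction, with AK202078 and AK205023 in opposite directions.

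Position on the chromosomes showed differences that followed whole chromosomes. The median log2 ratio of the measured genes of a chromosome ran from -0.11 for chromosome 8 (679 genes) to 0.24 for chromosome 12 (411 genes) over the 19 autosomes and X. On chromosome 12, 88.1% of genes had a ratio above 0, against 54.7% of the 12224 genes placed. The difference was spread along its length: in 4 equal runs of its genes the median was 0.25, 0.23, 0.26 and 0.26. Chromosome 8 had -0.10, -0.10, -0.10 and -0.13 in its 4 runs, and 26.5% of its genes above 0. Chromosomes 1 and 16 had medians of 0.14 and 0.12, and chromosome 11 -0.06. The medians hardly differed when genes had to reach 5 CPM, at 0.25 for chromosome 12 and -0.10 for chromosome 8.

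At day 2, in other libraries of the same 2 conditions, chromosome 12 was again the highest, at 0.28, and chromosome 8 the lowest, at -0.17. Chromosomes 1 and 16 had 0.14 and 0.12. Any lasting difference between the shBrf1 and control cells would be in both days, so day 2 is not an independent check. The 4 runs of chromosome 12 were less even at day 2, at 0.28, 0.42, 0.34 and 0.04. Against the same control library of day 0, chromosome medians ran from 0.00 to 0.03 in ML-60218 and from -0.18 to 0.16 in shMaf1, where chromosome 12 had -0.11 and chromosome 16 -0.18. DNA content was not measured, and the part of such chromosome-wide differences in the gene values was not tested. Set against the median of its own chromosome, an alternative added after the data were seen, 51 genes were higher and 76 lower.

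Within chromosomes, running medians over 11 neighbouring measured genes reached 0.5 in size at 15 of 12024 positions, of which 11 lay on chromosome 10. The 15 measured genes from Rab3ip to Mdm1 (chromosome 10, 116905784 to 118168999, 1.26 Mb) had a median log2 ratio of 0.66, with 13 above 0 and 10 at least 1.5-fold above control. Over all genes, 54.7% of those placed were above 0 and 2.45% of those measured were at least 1.5-fold above control. The stretch lies around positions picked by these same ratios, so its high counts follow in part from the choice. Yeats4, a subunit of chromatin complexes that reads histone acetylation, had 430 CPM in shBrf1 against 195 CPM in control, 2.21-fold higher (2.15 to 2.28). Nup107, a nuclear pore scaffold protein, had 930 CPM in shBrf1 against 485 CPM in control (1.92-fold, 1.88 to 1.95), and Cct2, a chaperonin subunit, 1589 against 929 CPM (1.71-fold, 1.69 to 1.73). Lyz2, described above, lies in the same stretch. The 2 genes below 0 were next to each other in its middle: Mdm2, the ubiquitin ligase of p53, had 3002 CPM in shBrf1 against 3845 CPM in control (1.28-fold, 1.27 to 1.29), and Slc35e3 1129 against 1509 CPM (1.34-fold, 1.32 to 1.36). At day 2 the 15 genes had a median of 0.51. In the other libraries of day 0, against the same control, the median was -0.63 in shMaf1 and -0.01 in ML-60218.

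**Figure D5:**
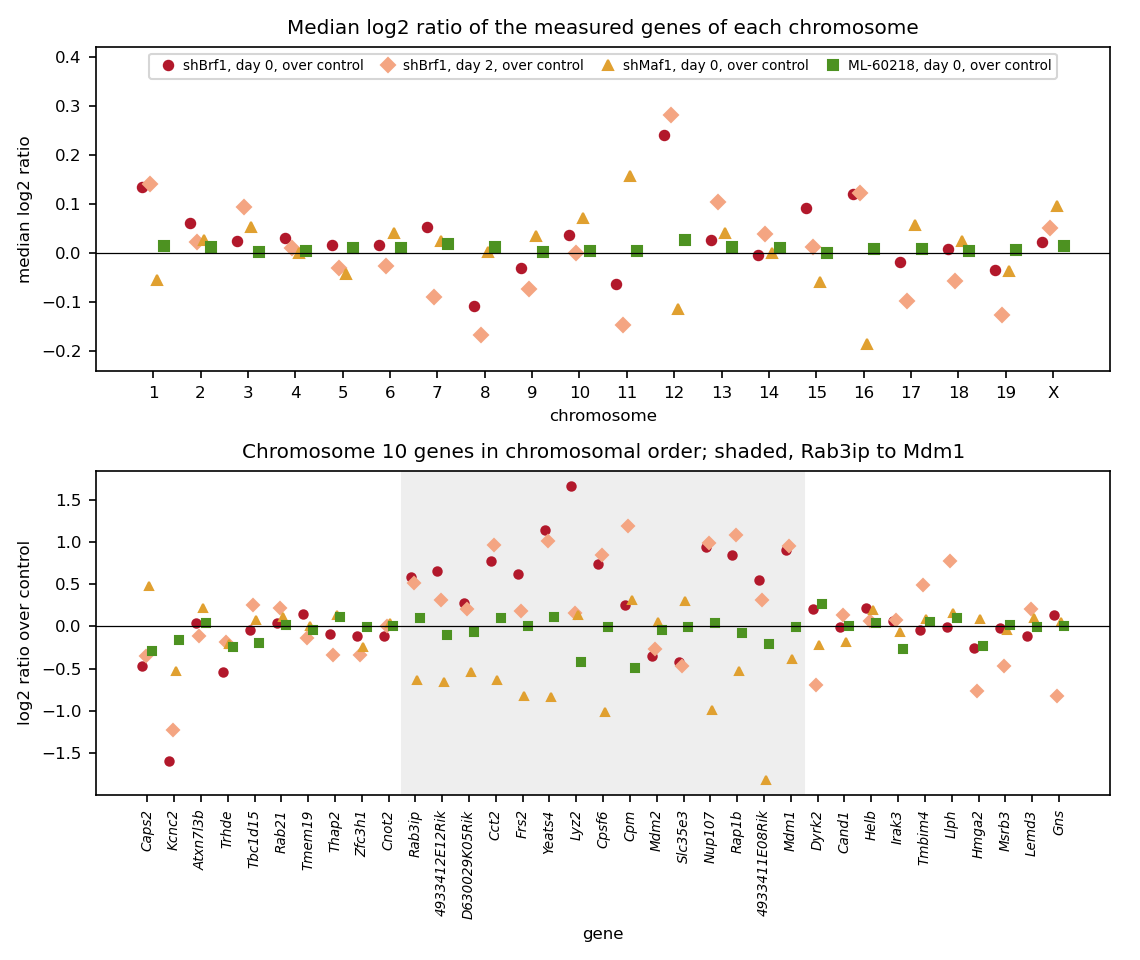
Top, median log2 ratio over control of the measured genes of each chromosome, for shBrf1 at day 0 and day 2 and for shMaf1 and ML-60218 at day 0. Bottom, the same ratios for single genes in order along chromosome 10, with Rab3ip to Mdm1 shaded. The shBrf1 points of both days stand at the top for chromosome 12 and at the bottom for chromosome 8, and 13 of the 15 shaded genes are above 0 at day 0.

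The other 4 positions were on chromosomes 1 and 7. On chromosome 1, medians of 0.51 were centred on Tmco1, Aldh9a1 and Mgst3 (167308670 to 167393797). On chromosome 7, the median of -0.67 was centred on Igf2.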

How the data were processed

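RNA of 3T3-L1 cells was sequenced from poly(A)-selected, stranded libraries, 1 per condition and day. Per the submitters' processing notes, reads were aligned with STAR 2.4 to mm10. Per the file headers, the authors deposited 1 table per pair with a count column for each library. The authors deposited whole-number values that may be rounded expected counts, since the counter is not given in the sources used here. The deposited quality sheets give, per library, the percent of ribosomal RNA and of duplicates, a 3′ skewness score and a count of ERCC spike-in reads. The fold change and p-value columns of the authors were not used.

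Counts were scaled by TMM over all 8 libraries (edgeR 4.0.16, R 4.3.3) to CPM. Ratios are log2((CPM + 0.5)/(CPM + 0.5)). The rule was a ratio of at least 1 in size with at least 1 CPM in either library. With 1 library a side there was no test. Intervals are exact binomial on the counts, and a fold against 0 counts is a bound against 3 counts per library. The ratio rule and the interval were tested on simulated data. Alternatives were other scalings, of which DESeq2 1.42.0 gave one, pseudocounts, floors and fold limits, and a lowess trend on transcript length (GENCODE M21, 91.7% of measured genes). Positions are mm10, with starts counted from 1.

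Named genes were the polymerase III genes at a log2 ratio of at least 0.3 in size with Brf1 and Maf1, 7 adipogenesis genes, the 15 highest and 15 lowest at 5 CPM with a gene name, up to 4 members of each list, and up to 10 genes past the rule on both days in each direction. The pair, the 36 lists and the alternatives were chosen with earlier results of these data known, and 4 gene families were added after the values were seen. Among the 15 lowest genes, 1 is not reported here.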

Additional observations from a re-analysis of the deposited data

Results flagged for a closer look

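Transcripts AK202078 and AK205023 were past the size rule in opposite directions on the 2 days, and the difference between the days was not tested. AK202078, described in the table as a noncoding RNA from clustered small RNAs of oocytes, had a log2 ratio of shBrf1 over control of -1.60 at day 0, with 48 counts in shBrf1 against 187 in control, and of 2.67 at day 2, at 132 CPM in shBrf1 against 20.3 CPM in control. AK205023 had -2.10 at day 0, with 12 counts in shBrf1 against 111 in control, and 1.45 at day 2, at 17.3 CPM in shBrf1 against 6.04 CPM in control. Their rise at day 2 is in the library with 7.8% ribosomal RNA, and whether the 2 go together was not tested.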

How the results depend on the processing

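Over the alternatives, the 60 higher and 61 lower genes became 42 and 103 by spike-in reads, 37 and 45 with a pseudocount of 1 CPM, 93 and 117 with a pseudocount of 0.1 CPM, 30 and 41 with a floor of 5 CPM, 300 and 313 at 1.5-fold, and 8 and 17 at 3-fold. They stayed within 1.5 times under TMM over the 2 libraries, DESeq2 size factors, library totals (49 and 78), no floor, the length trend and the chromosome medians. The median ratio over all genes moved by -0.13 with spike-in reads and by -0.06 with library totals, and the higher genes were 29% and 38.6% of the calls, against 49.6% in the main setting. The 150 named genes measured were followed over the other scalings and pseudocounts only, not over the floors, fold limits, length trend or chromosome medians. Within these settings, 0 past the rule changed direction and 3 lost their call (Fbln5, Fmod and Id2). Another 4 gained a call. These were Fzd4 with a pseudocount of 0.1 CPM, at 1.01, and Myl9, Rsad2 and Slc7a11 by spike-in reads, at -1.01, -1.05 and -1.03. Gas6 and Gpc1, named later, are not among the 150. Genes lower on both days numbered 35, against 22 with a floor of 5 CPM, 74 by spike-in reads and 40 with 1.5-fold at day 2. Genes higher on both days numbered 9, against 4 with a floor of 5 CPM, 4 by spike-in reads and 17 with 1.5-fold at day 2. The cause of these moves was not tested, apart from the rules themselves. No paired analysis was possible because each group holds 1 library. Genes near 1 CPM rest on about 33 counts and have wide intervals.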
